A study of Mus musculus with 18 samples.

Results

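The Egr genes Egr1, Egr2, Egr3 and Egr4, the Nab genes Nab1 and Nab2, and Srf were measured in mouse striatum after an acute injection of cocaine. Every probe set whose annotation held only the symbol of 1 of these 7 genes was taken, which gave 10 of the 22690 probe sets on the array. Of these 10, 8 exceeded a log2 value of 4 on 3 arrays or more and were tested, and they stood for 6 of the 7 genes. The only Egr3 probe set and 1 of the 2 Nab1 probe sets did not pass and were not tested.

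Egr proteins are zinc finger transcription factors that bind a GC-rich DNA element, and their genes are immediate early genes, switched on in neurons by synaptic activity without prior protein synthesis. Nab1 and Nab2 are corepressors that bind Egr1, Egr2 and Egr3 and restrain the transcription these drive. Srf, the serum response factor, binds CArG boxes in the promoters of Egr genes and of Fos together with partner proteins that the ERK kinases phosphorylate, and in the striatum this pathway responds to dopamine and glutamate together.

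Affymetrix arrays were hybridised with RNA from the striatum, nucleus accumbens included, of 18 mice, 1 mouse per array. The mice were littermates aged 10 to 20 weeks, housed singly and handled over 5 days, and were killed 1 hour after an intraperitoneal injection. There were 6 Camk4 mutant mice given 25 mg/kg cocaine, 3 mutant mice given saline, 6 control mice given 25 mg/kg cocaine and 3 control mice given saline. Camk4 encodes CaMKIV, a calcium-dependent kinase of the nucleus, and neither the construct of the mutation nor its driver or strain is given in the sources used here. The series asks how the loss of CaMKIV bears on the transcriptional response to cocaine. Each value is a log2 expression value or a difference between such values, and a level is compared only within its own probe set.

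Animals were numbered in Arabic numerals (12 mice, 3 per group, replicates 1 to 3) or in Roman numerals (6 cocaine mice, 3 per genotype, replicates 4 to 6). What this numbering marks is not given in the labels. Of 12674 probe sets tested, 781 (6.16%) differed between the numbering series in limma, and the series was a term of the main fit. Mutant cocaine replicate 5 stood apart, with an actin 3' minus 5' difference, which rises as RNA shortens, of 3.59 against 1.57 to 2.55 on the other arrays. Its mean correlation with the other arrays was 0.966, against 0.976 to 0.990. The Camk4 probe set 1426167_a_at lay at 6.85 to 7.69 in mutant mice and at 7.52 to 7.76 in control mice, and the genotypes did not overlap within either numbering series. A second Camk4 probe set, 1421941_at, lay at 3.80 to 6.10 in mutant mice and at 5.36 to 7.00 in control mice, and in the Roman-numbered animals its genotypes overlapped. The differences after cocaine were -0.39 ± 0.10 and -0.75 ± 0.31 (SE) and neither passed (limma, adjusted p = 0.427 for both), and where the probes lie relative to the mutation is not given. The tissue carried markers of striatal spiny projection neurons, with Penk at 13.8 to 14.0 and Ppp1r1b at 13.3 to 13.4. Of 4 cortical markers 2 had a probe set, Neurod6 at 2.74 to 4.31 and Tbr1 at 2.83 to 5.11. Tbr1, the only one of them tested, differed between cocaine and saline by 0.46 ± 0.44 in mutant mice and by -0.54 ± 0.44 in control mice. No marker of spiny neurons, cortical neurons, glia or endothelium passed the test in any contrast. In whole tissue, a change in the share of cells that express a gene and a change in its RNA per cell cannot be told apart.

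The promoter sequences show, for 5 of the 7 genes, which carry close to a start site the elements that Srf, CREB and the Egr factors bind. RefSeq promoter windows of 300 bases on mouse build GRCm38.p6, with 250 bases before and 50 bases from the annotated start, were available for 5 of the genes in 9 windows. None was available for Egr1 or Egr3, so these genes were not searched. Both strands were searched for the CArG box, the full cAMP response element (CRE) TGACGTCA, its short form TGACG and the Egr site GCGTGGGCG, and a full CRE would also count as a short one. The 4 windows below, 5′ to 3′ on the gene's strand with the matches in capitals, are those of the Egr gene with the largest measured cocaine response (Egr2, chr10:67537619-67537918, plus strand), of the next Egr gene (Egr4, chr6:85513540-85513839, minus strand), of Srf itself (chr17:46556113-46556412, minus strand) and of Nab1 (chr1:52500399-52500698, minus strand).
Egr2: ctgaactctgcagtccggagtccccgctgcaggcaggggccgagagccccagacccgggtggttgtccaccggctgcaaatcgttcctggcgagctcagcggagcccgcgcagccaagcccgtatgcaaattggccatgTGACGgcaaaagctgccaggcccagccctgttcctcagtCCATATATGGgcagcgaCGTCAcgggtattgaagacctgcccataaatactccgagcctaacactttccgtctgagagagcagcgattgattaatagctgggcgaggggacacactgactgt
Egr4: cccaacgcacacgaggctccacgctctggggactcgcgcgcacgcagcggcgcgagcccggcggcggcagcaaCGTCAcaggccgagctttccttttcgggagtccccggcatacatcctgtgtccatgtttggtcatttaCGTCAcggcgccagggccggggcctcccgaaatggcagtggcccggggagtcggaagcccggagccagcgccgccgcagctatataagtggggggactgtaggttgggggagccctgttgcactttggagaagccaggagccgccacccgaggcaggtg
Srf: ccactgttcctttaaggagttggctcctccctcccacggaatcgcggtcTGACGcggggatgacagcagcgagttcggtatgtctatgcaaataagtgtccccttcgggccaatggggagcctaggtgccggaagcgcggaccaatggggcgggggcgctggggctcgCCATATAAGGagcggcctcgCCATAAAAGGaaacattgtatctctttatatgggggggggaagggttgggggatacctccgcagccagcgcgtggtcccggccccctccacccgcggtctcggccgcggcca
Nab1: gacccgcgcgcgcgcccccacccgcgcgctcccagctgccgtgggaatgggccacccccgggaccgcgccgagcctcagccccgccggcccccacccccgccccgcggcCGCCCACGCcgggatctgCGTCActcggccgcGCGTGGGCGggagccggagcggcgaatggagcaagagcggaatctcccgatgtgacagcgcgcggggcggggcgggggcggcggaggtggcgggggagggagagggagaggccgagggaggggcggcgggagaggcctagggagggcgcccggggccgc
Egr2 held a CArG box 72 to 63 bases before the start, flanked by short CREs at 111 to 107 and at 55 to 51 bases before it. Egr4 held 2 short CREs and no CArG box in this window. The Srf window held 2 CArG boxes, 82 to 73 and 62 to 53 bases before the start, and 1 short CRE. Nab1 held 2 Egr sites, 141 to 133 and 109 to 101 bases before the start, with 1 short CRE between them.

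Of the 5 Egr2 windows, which overlap in part, 4 held a CArG box. The Nab2 window held none of the motifs, and no window held the full CRE. Among all 32851 mouse windows of this length, 1.63% held a CArG box, 1.79% a full CRE, 20.8% a short CRE and 0.612% an Egr site. These matches describe letters in the windows, and binding was not measured.

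**Figure D1:**
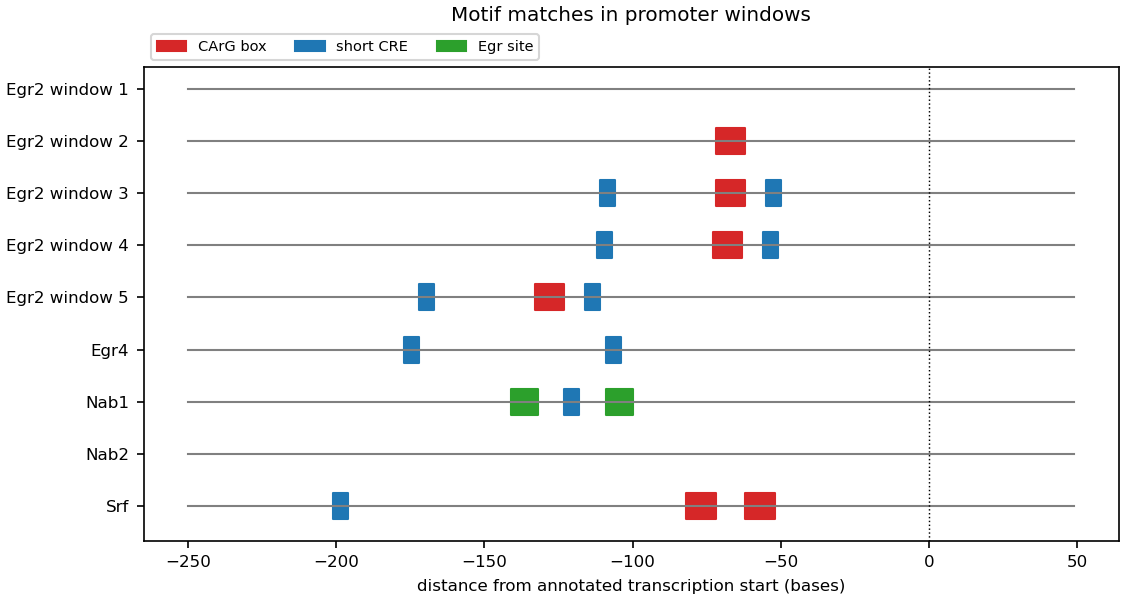
Motif matches in the 9 RefSeq promoter windows, with the distance from the annotated start in bases on the x axis and 1 line per window; coloured blocks are CArG boxes, short CREs and Egr sites. CArG boxes lie in 4 of the 5 Egr2 windows and in the Srf window, and Egr sites lie in the Nab1 window. The Egr2 windows that overlap share the same box. Egr1 and Egr3 had no window and were not searched.

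Cocaine was set against saline to ask which of these genes respond within 1 hour. Egr2, Egr4 and Egr1 rose, by 11.0-fold, 4.92-fold and 1.65-fold averaged over the genotypes. The size of the Egr4 value is uncertain, since it rests on dim saline values. The Arabic animal numbers run in consecutive blocks that each hold 1 mouse of every group, and with these blocks in place of the series term Egr2 passed (limma, adjusted p = 0.00686) while Egr4 (0.0511) and Egr1 (0.0583) did not. With an ordinary linear model, Egr4 (adjusted p = 0.0596) and Egr1 (0.0676) did not pass either. The corepressor gene Nab2 was 1.37-fold higher and did not pass the test, and Nab1 and Srf did not pass either. In all, 4 of the 8 member probe sets tested passed an adjusted p under 0.05, covering 3 genes, with Egr2 counted by both its probe sets. This count includes Egr4, which passed the filter through its cocaine arrays alone, so its call does not stand as independent support. With no filter on dim probe sets the same 4 passed. Of all 12674 probe sets tested 28 passed (0.221%), every one of the 28 being higher after cocaine. The members were chosen with earlier results of these data known, so these shares are not an independent comparison. All saline animals are Arabic-numbered, so the averaged change comes from the 12 arrays of Arabic-numbered mice and the other 6 add only to the estimate of the spread.

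Egr2, also known as Krox20, is best known for its part in myelination and hindbrain patterning and is an activity-induced gene in forebrain neurons. Its probe set 1427683_at read 8.36, 10.06 and 9.98 in Arabic-numbered and 11.16, 11.84 and 11.66 in Roman-numbered mutant cocaine mice, against 6.49, 6.50 and 6.84 in mutant saline mice. In control mice it read 10.10, 11.49 and 11.55 in Arabic-numbered and 11.63, 11.15 and 11.34 in Roman-numbered cocaine animals, against 7.91, 6.70 and 6.36 in saline animals. Every cocaine array lay above every saline array, and mutant cocaine replicate 1 was the lowest of the cocaine arrays. The averaged change was 3.46 ± 0.39 (log2, SE; limma, adjusted p = 5.53e-04), rank 2 by size of 12674. The other Egr2 probe set, 1427682_a_at, gave 3.37 ± 0.39 at the same adjusted p and had rank 3. The probe sets differed by at most 0.39 on any of the 18 arrays.

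Egr4, a family member expressed in neurons, read 4.11, 5.63 and 5.20 in Arabic-numbered and 6.04, 6.90 and 6.68 in Roman-numbered mutant cocaine mice, against 2.86, 3.23 and 3.54 in mutant saline mice. Control cocaine mice read 5.00, 6.88 and 7.14 (Arabic) and 6.52, 6.20 and 6.40 (Roman), against 3.72, 3.63 and 3.18 in control saline mice. All 12 cocaine arrays lay above all 6 saline arrays, again with mutant cocaine replicate 1 lowest and control cocaine replicate 1 next. The averaged change was 2.30 ± 0.37 (limma, adjusted p = 0.0100). Saline values all lay below 4, so Egr4 passed the filter through its cocaine arrays alone and the size of its change is uncertain. Background modelling can compress values this dim, and its part in the size of the change was not tested. With no filter on dim probe sets the adjusted p was 0.0284.

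Egr1, also known as Zif268, is the family member most often used as a marker of neuronal activation. It read 12.35, 12.89 and 12.73 in Arabic-numbered and 13.07, 13.27 and 13.20 in Roman-numbered mutant cocaine mice, against 11.84, 12.08 and 12.28 in mutant saline mice. In control mice it read 12.84, 13.21 and 13.31 (Arabic) and 13.22, 13.03 and 13.16 (Roman) after cocaine, against 12.52, 12.17 and 12.10 after saline. Cocaine and saline arrays did not overlap within a genotype, while mutant cocaine replicate 1 lay below control saline replicate 1. The share of all probe sets that separate within each genotype was not counted, so no weight is placed on this. The averaged change was 0.72 ± 0.12 (limma, adjusted p = 0.0134), rank 48 of 12674. The call was lost without control cocaine replicate 2, control saline replicate 2 or control saline replicate 3, at adjusted p values of 0.0509 to 0.0525. Egr1 was already a bright probe set after saline, and 98.3% of all probe sets had a lower mean over the 18 arrays.

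Egr3, which acts with Egr1 and Egr2 at shared sites, read 1.43 to 1.56 on all 18 arrays, the floor of this table. Its probe set therefore gave no measurement of a cocaine response.

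**Figure D2:**
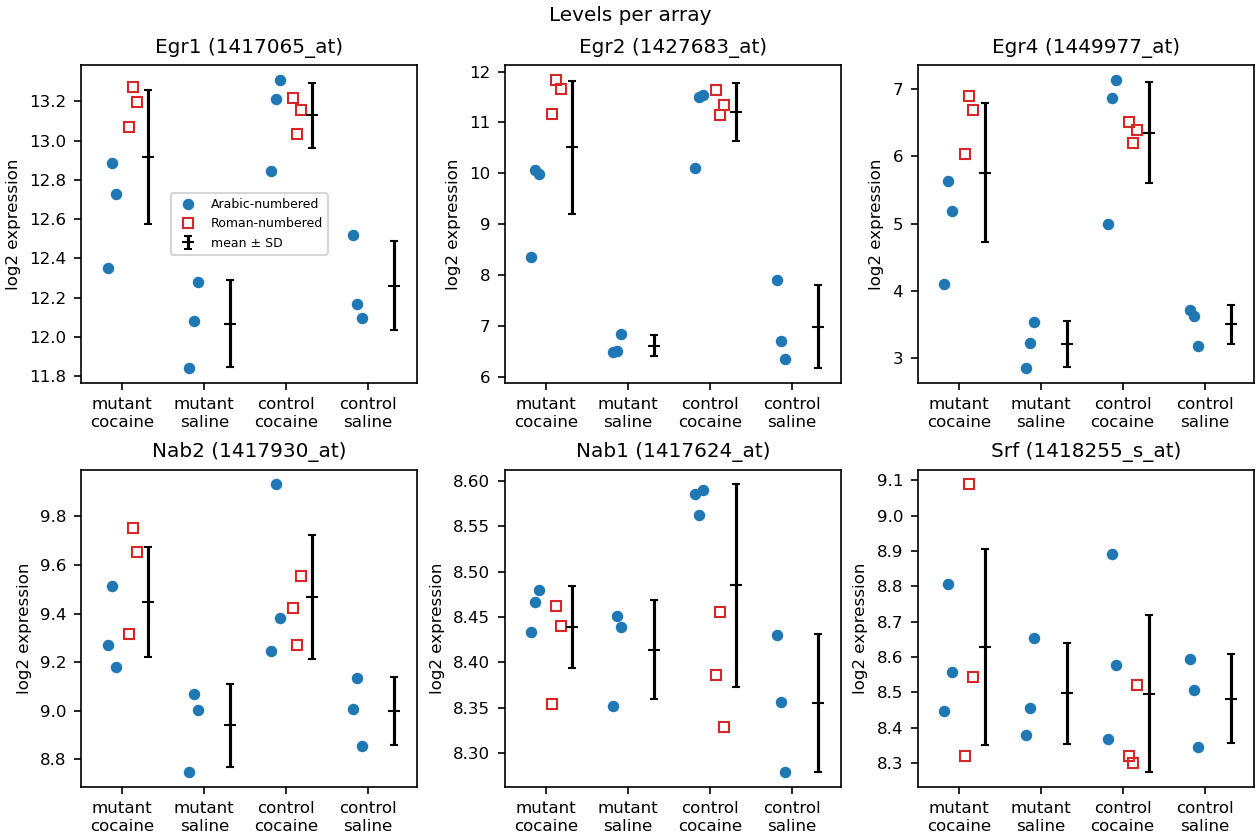
Log2 expression of 6 genes (1 probe set each) in every array, by group, with filled circles for Arabic-numbered and open squares for Roman-numbered animals and a bar for the group mean ± SD (n = 6 per cocaine group, n = 3 per saline group). Egr2 and Egr4 separate cocaine from saline on every array, the Arabic-numbered mutant cocaine mice have the lowest mean among the cocaine animals for Egr1, Egr2 and Egr4, and Nab1 and Srf overlap between treatments.

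Among the corepressors, Nab2 had a lowest, median and highest value of 9.18, 9.41 and 9.75 in mutant cocaine mice, against 8.75, 9.00 and 9.07 in mutant saline mice. Control cocaine mice gave 9.24, 9.40 and 9.93, against 8.85, 9.01 and 9.14 in control saline mice. No cocaine array reached down to any saline array, as was true of both Egr2 probe sets and Egr4 and of 52 of all 12674 probe sets (0.410%). The averaged change was 0.45 ± 0.12 with a 95% interval of 0.20 to 0.71, and it did not pass (limma, adjusted p = 0.293). It passed without mutant cocaine replicate 5 (adjusted p = 0.0423), the array with the highest mutant value of Nab2. Leaving out that array did not change the averaged value itself, and the averaged changes of Egr1, Egr2 and Egr4 stayed past the threshold without it.

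Nab1, read by 1417624_at, had a lowest, median and highest value of 8.35, 8.45 and 8.48 in mutant cocaine mice, against 8.35, 8.44 and 8.45 in mutant saline mice. In control mice these were 8.33, 8.51 and 8.59 after cocaine, against 8.28, 8.36 and 8.43 after saline, so the treatments overlapped in both genotypes. Within the Arabic-numbered animals the control mice did not overlap, at 8.56 to 8.59 after cocaine, while the mutant mice did. The share of all probe sets that separate in this way was not counted. Its averaged change was 0.14 ± 0.05 (limma, adjusted p = 0.843), and its second probe set, 1448781_at, stayed between 1.96 and 2.39 on every array. Srf, read by 1418255_s_at, ran from 8.32 to 9.09 in mutant cocaine mice, against 8.38 to 8.66 in mutant saline mice. In control mice it ran from 8.30 to 8.89 after cocaine, against 8.35 to 8.59 after saline. Its averaged changes were 0.12 ± 0.12 by this probe set and 0.26 ± 0.20 by 1418256_at, with adjusted p values of 0.883 and 0.863 in limma and intervals that reached 0.38 and 0.69. Changes in Srf RNA up to those bounds were thus within the error of these arrays.

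**Figure D3:**
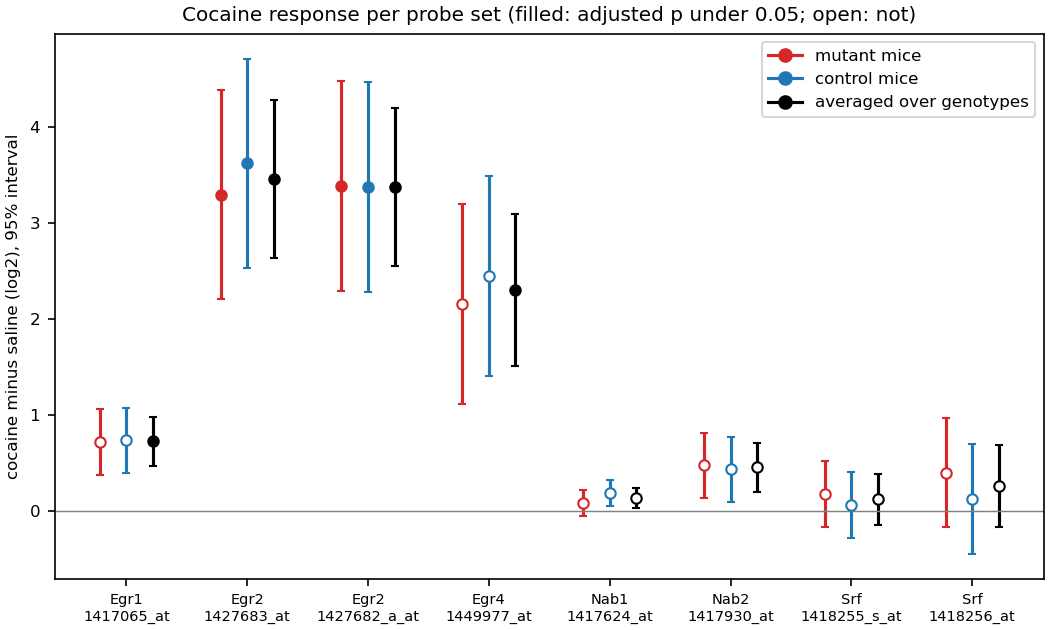
Cocaine minus saline on the log2 scale for the 8 probe sets tested, with points for mutant mice, control mice and the average over genotypes and bars for 95% intervals; filled points passed an adjusted p under 0.05. Both Egr2 probe sets passed in all 3 comparisons, Egr4 and Egr1 passed in the average only, and Nab1, Nab2 and Srf in none.

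The sizes of the measured responses were set against each other within the 12 Arabic-numbered arrays, for 4 pairs of genes that could be read. Each response was read by its own probe set. Egr1 was bright and Egr4 dim after saline, and the part of brightness in the sizes of the changes was not tested. On the log2 scale the measured Egr2 response exceeded that of Egr1 by 2.73 (2.27 in mutant and 3.20 in control mice). The measured Egr4 response exceeded that of Egr1 by 1.58 (1.18 and 1.97). Both differences had p = 0.005 in an exact two-sided permutation test over 400 relabellings of treatment within genotype, the smallest it can give, and 0.00667 adjusted over the 4 pairs. Egr4 passed the filter through its cocaine arrays alone, so the p-values of its pairs do not stand as independent support. The measured Egr2 response was 1.16 above that of Egr4 (1.08 and 1.23), but the Egr4 saline values are dim. A larger response of Egr2 and a compression of those saline values cannot be told apart. In each of the 12 cocaine arrays, Roman-numbered ones included, Egr2 and Egr4 stood farther above the saline mean of their genotype than Egr1. Nab2 exceeded Nab1 by 0.32 (0.34 in mutant and 0.30 in control mice; exact p = 0.015, adjusted 0.015), and without control saline replicate 1 or replicate 3 the exact p was 0.055. Pairs with Egr3 are not counted, since Egr3 stayed at the floor.

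**Figure D4:**
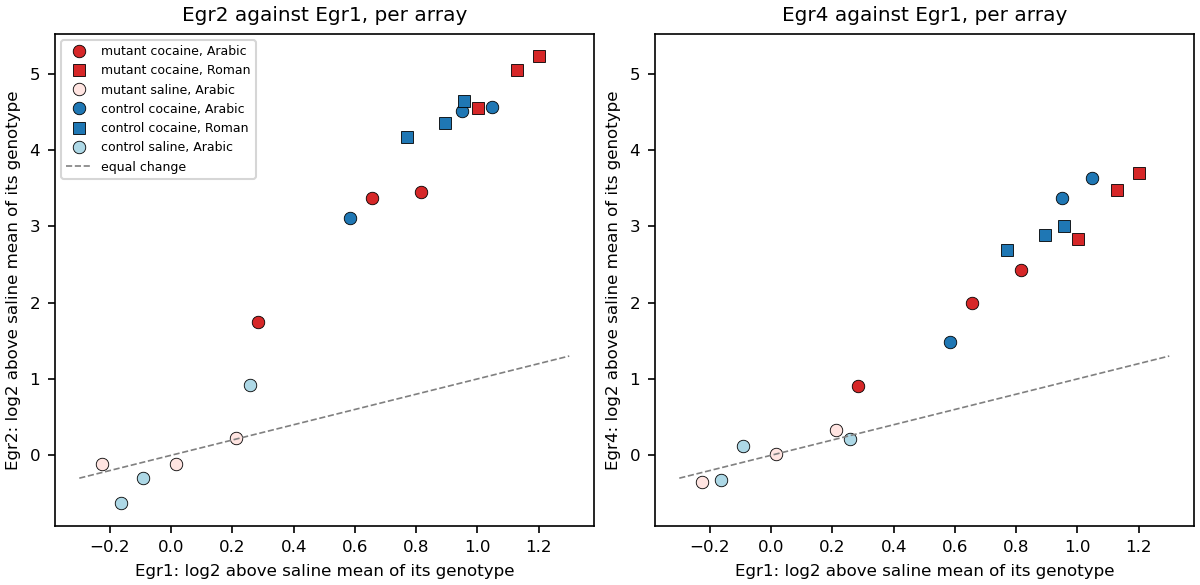
Egr2 (left) and Egr4 (right) against Egr1 in each of the 18 arrays, as the log2 distance from the saline mean of the animal's own genotype; the dashed line marks equal change. All 12 cocaine arrays lie above the line in both panels, with mutant cocaine replicate 1 nearest to the saline arrays at 1.75 for Egr2, 0.90 for Egr4 and 0.28 for Egr1.

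The animals differed in the size of the response, and Egr1, Egr2 and Egr4 shared these differences. Among the 6 Arabic-numbered cocaine animals the range was 3.19 for Egr2, 3.03 for Egr4 and 0.96 for Egr1, and among the 6 Roman-numbered ones it was 0.69, 0.86 and 0.24. Mutant cocaine replicate 1 was lowest and control cocaine replicates 2 and 3 were highest among the Arabic-numbered animals for all 3 genes, and mutant cocaine replicate 5, the array with the large actin difference, was highest among the Roman-numbered ones. Over the 12 Arabic-numbered arrays Pearson's r was 0.971 for Egr1 with Egr2, 0.972 for Egr1 with Egr4 and 0.970 for Egr2 with Egr4. These are descriptions over arrays that treatment parts into groups, and the genes share each array's RNA and labelling. Nab2 had r = 0.825 with Egr1, 0.822 with Egr2 and 0.858 with Egr4, and Nab1 had 0.855, 0.859 and 0.817. Over all 18 arrays these were 0.844, 0.833 and 0.869 for Nab2 and 0.429, 0.407 and 0.415 for Nab1.

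For each member, the 3 genes whose levels were most like it over the same 12 arrays were named by Pearson's r. For Egr1 they were Arc, a postsynaptic cytoskeletal protein (r = 0.973), Midn (0.971) and Jun, an AP-1 subunit (0.971). For Egr2 they were the orphan nuclear receptor Nr4a1 (0.988), Tiparp (0.988) and Midn (0.987), and for Egr4 they were Jun (0.985), Midn (0.983) and the AP-1 subunit Fosb (0.981). Over all 18 arrays these 9 correlations ran from 0.959 to 0.993. Those nearest to Nab2 were Mbd6 (0.944), Fbxo33 (0.937) and Opa3 (0.934), where r over all 18 arrays was 0.776, 0.922 and 0.653. Those nearest to Srf were Adamts1 (0.922), Lrrfip2 (0.895) and Spast (0.885), at 0.647, 0.824 and 0.567 over all 18. Nab1 came closest to Chmp1b (0.887), Gpr19 (0.872) and Errfi1 (0.867), where r over all 18 arrays was 0.291, 0.264 and 0.461.

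Taken by genotype, both Egr2 probe sets rose in mutant mice, by 3.29 ± 0.52 and 3.38 ± 0.52, at a limma adjusted p of 0.0271, and they were 2 of the 6 probe sets called there (0.0473% of those tested). In control mice they rose by 3.62 ± 0.52 and 3.37 ± 0.52 (limma, adjusted p = 0.0113 and 0.0118), where 14 probe sets were called (0.110%). Egr1 changed by 0.71 ± 0.16 in mutant and 0.73 ± 0.16 in control mice (limma, adjusted p = 0.259 and 0.164), and Egr4 by 2.15 ± 0.49 and 2.45 ± 0.49 (0.279 and 0.0902), so neither passed within a genotype. Nab2 changed by 0.47 ± 0.16 in mutant and 0.43 ± 0.16 in control mice and did not pass in either.

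With consecutive blocks the Egr2 calls did not pass in mutant mice (limma, adjusted p = 0.147 and 0.127) or in control mice (0.0774 for both). The calls within a genotype also turned on single animals. Without mutant cocaine replicate 1, the low responder, Egr1, Egr2 and Egr4 all passed in limma in the mutant mice (adjusted p = 0.0209 for Egr1 and 0.0261 for Egr4) and in the control mice (0.0233 and 0.0152). The mutant Egr2 calls were lost without any 1 of mutant cocaine replicates 2, 3 and 6, mutant saline replicates 1, 2 and 3, and control cocaine replicates 4 and 6, at adjusted p values of 0.0517 to 0.208. The control Egr2 calls were lost without control cocaine replicate 2, control saline replicate 2 or control saline replicate 3, at 0.0559 to 0.119. Within the Arabic-numbered arrays alone, Egr2 (1427683_at) stood 2.85 above saline in mutant and 4.06 above saline in control mice, and Egr4 stood 1.77 and 2.83 above it. The fitted values by genotype are nearer to each other than these because the fit takes 1 shift between numbering series for both genotypes.

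Mutant and control mice were then compared at each treatment. The means of Egr1, Egr2 and Egr4 had the same order, highest in control cocaine mice, then mutant cocaine, control saline and mutant saline mice, and the neighbours of the same treatment did not differ beyond their error. After saline the mutant minus control difference was -0.19 ± 0.17 for Egr1, -0.37 ± 0.55 and -0.64 ± 0.55 for Egr2, and -0.30 ± 0.53 for Egr4. After cocaine it was -0.21 ± 0.12 for Egr1, -0.70 ± 0.39 and -0.63 ± 0.39 for Egr2, -0.60 ± 0.37 for Egr4 and -0.02 ± 0.12 for Nab2, with 95% intervals of -1.52 to 0.12 for Egr2 (1427683_at) and -1.38 to 0.19 for Egr4. In neither comparison did limma call a probe set among the 8 or among all 12674 (0%), and none of the 8 had an unadjusted p under 0.05, against 350 of all probe sets after saline and 1470 after cocaine. An ordinary linear model also called 0 of the 8.

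The genotype difference after cocaine took different values in the numbering series. In the Arabic-numbered animals it was -0.47 for Egr1, -1.58 and -1.47 for Egr2 and -1.36 for Egr4. In the Roman-numbered animals it was 0.04 for Egr1, 0.18 and 0.21 for Egr2 and 0.17 for Egr4. For Egr2 (1427683_at), and also for Nab1 (1417624_at), the 3 Arabic-numbered mutant cocaine animals all lay below the 3 control ones. By the other Egr2 probe set, as for Egr1 and Egr4, the genotypes overlapped. The share of all probe sets that separate in this way was not counted, so no weight is placed on this separation. A test of the difference between the numbering series, chosen after the data were seen, gave -1.75 ± 0.67 for Egr2 (1427683_at), -1.53 ± 0.66 for Egr4 and -0.51 ± 0.21 for Egr1, with unadjusted p values of 0.0186, 0.0349 and 0.0306. None passed after adjustment (limma, adjusted p = 0.705 for each), nor did any of the 12674 probe sets (0%), of which 838 had an unadjusted p under 0.05. Without mutant cocaine replicate 1 the overall difference was -0.36 for Egr2 (1427683_at), -0.32 for Egr4 and -0.12 for Egr1, and without mutant cocaine replicate 5 it was -0.86, -0.76 and -0.26.

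**Figure D5:**
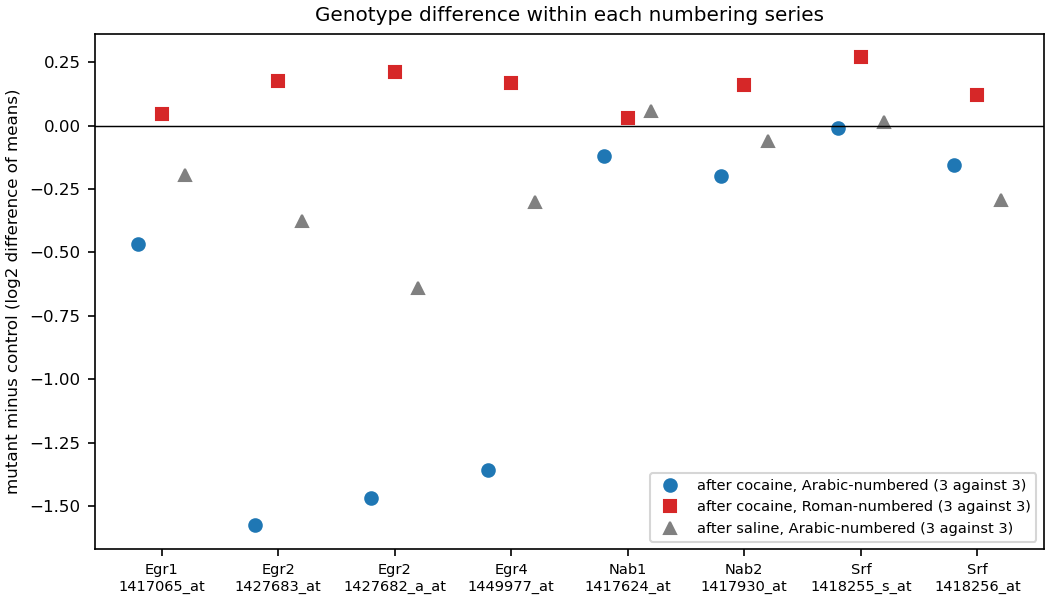
Mutant minus control difference of means on the log2 scale for the 8 probe sets tested, within the Arabic-numbered cocaine animals (circles), the Roman-numbered cocaine animals (squares) and the saline animals (triangles), 3 animals per genotype each. Egr2 and Egr4 lie between -1.58 and -1.36 in the Arabic-numbered cocaine animals and between 0.17 and 0.21 in the Roman-numbered ones.

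The interaction asks whether the cocaine response differs between genotypes, as mutant minus control response. It was -0.02 ± 0.21 for Egr1, -0.33 ± 0.67 and 0.01 ± 0.67 for Egr2, -0.29 ± 0.64 for Egr4 and 0.04 ± 0.21 for Nab2. No probe set was called in limma among the 8 or among all 12674 (0%), and an unadjusted p under 0.05 occurred in 0 of the 8 and in 340 of all. The interval for Egr2 (1427683_at) ran from -1.75 to 1.10, so a response smaller or larger by such amounts was not detectable with these arrays. In the Arabic-numbered arrays alone the interaction was -1.20 ± 0.72 for Egr2 (1427683_at), -1.06 ± 0.70 for Egr4 and -0.27 ± 0.23 for Egr1 (limma, adjusted p = 0.966 for each).

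Averaged over genotypes, the Roman- minus Arabic-numbered difference among cocaine animals was 1.21 ± 0.39 for Egr2 (1427683_at), 0.80 ± 0.37 for Egr4 and 0.27 ± 0.12 for Egr1, and none passed (limma, adjusted p = 0.0754, 0.199 and 0.187). Most of it lay in the mutant mice, whose means were 11.55 in Roman- and 9.47 in Arabic-numbered animals for Egr2, 6.54 and 4.98 for Egr4, and 13.18 and 12.66 for Egr1. In control mice these means were 11.38 and 11.04 for Egr2, 6.37 and 6.34 for Egr4, and 13.13 and 13.12 for Egr1. The test of this difference between the genotypes is the one given above for the numbering series, which did not pass. Beside these values, the actin 3' minus 5' difference was 1.57 to 1.91 in the Roman-numbered animals other than mutant cocaine replicate 5, against 2.14 to 2.55 in the Arabic-numbered cocaine animals. The part of RNA quality in these differences was not tested.

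The upstream and downstream partners were read from lists of the pathway. A list of 12 genes that act upstream of Srf or beside it held ERK pathway kinases, ternary complex factors, myocardin-related factors and Creb1. Of these 12 genes 7 were tested and 0 passed for cocaine averaged over genotypes. Their median change was 0.01 against 0.00 over all probe sets. The kinase gene Map2k1 changed by -0.08 ± 0.06 and Mrtfa, an actin-regulated Srf coactivator, by 0.01 ± 0.07. Of 5 cofactors of Egr and Nab proteins 4 were tested and 0 passed, among them Chd4, a remodelling subunit that Nab proteins recruit (-0.05 ± 0.05), and Hcfc1 (-0.01 ± 0.09). Their median was -0.04.

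The lists were chosen with earlier results of these data known, and 0.221% of all probe sets passed for cocaine averaged over genotypes. Among 11 known Egr target genes, 5 were tested and 1 passed, Arc, at 2.96 ± 0.37 (limma, adjusted p = 8.34e-04), and the median of the 5 was -0.01. Among 12 Srf target genes, 11 were tested and 3 passed, all higher after cocaine, with a median of 0.27. These were Fos at 4.55 ± 0.48, Junb at 2.57 ± 0.31 and Fosb at 3.01 ± 0.45 (limma, adjusted p = 5.53e-04, 5.81e-04 and 0.0052), all AP-1 subunits. No gene of the 4 lists passed for mutant against control after saline, after cocaine or in the interaction.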

How the data were processed

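The deposited values are log2 expression levels of 22690 probe sets on 18 arrays. The authors computed them by GCRMA under R 2.4.1, per the submitters' processing notes. GCRMA corrects background by probe sequence, equalises the arrays' distributions and summarises each probe set, so it removes shifts in total signal and compresses dim probe sets. The sources used here give neither its settings nor a genome build. Groups and numbering series were taken from the sample titles, since the description lines named the title's genotype and treatment in 0 of 18 samples.

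The 64 control probe sets were left out, and the 12674 probe sets that exceeded a log2 value of 4 on 3 arrays or more were tested. In limma 3.58.1 (R 4.3.3) each probe set had a linear model of the 4 groups and the numbering series, with an intensity trend, two-sided moderated tests and Benjamini-Hochberg adjustment over all 12674, at a threshold of 0.05. It was tested on simulated data. Responses of pairs of genes were compared by exact permutation; of 7 pairs run, 3 held Egr3 and were left out. Likeness is Pearson's r with the member's probe set of highest mean, and the 3 highest genes are named; from each pathway list, up to 4 genes past the threshold or the 2 of highest mean are named. The members and lists were chosen with earlier results of these data known. Each array is 1 animal, so p-values measure the spread between animals, and the number of arrays limits the precision. Alternatives covered the series term, an actin term, replicate blocks, array weights, filters, normalization, the variance model and leaving out each array.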

Additional observations from a re-analysis of the deposited data

Results flagged for a closer look

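Of 16 groups of 6 cocaine arrays tested for a single distant value (8 probe sets in each genotype), 3 held one, and chance gives about 1 in 20. Control cocaine replicate 1 had the lowest Egr2 value of its group by both probe sets, at 10.1 by 1427683_at, where the nearest of the other 5 arrays was at 11.2, and at 10.148 by 1427682_a_at, where the nearest was at 11.1. These 2 probe sets read the same gene, so they are not separate evidence. Mutant cocaine replicate 4 had the lowest Nab1 value of its group by 1417624_at, at 8.354, where the nearest was at 8.433, a gap of less than 0.1 on the log2 scale.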

How the results depend on the processing

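Averaged over genotypes, 4 member probe sets passed for cocaine, 2 with blocks of consecutive animal numbers or an ordinary linear model (both Egr2), and 3 to 5 when each array was left out in turn. In mutant mice 2 passed, and 0 passed with the replicate block, consecutive blocks, no filter on dim probe sets, an ordinary linear model, only the groups compared or the Arabic-numbered arrays alone, with 0 to 4 when arrays were left out. In control mice 2 passed, 4 without the series term, 1 with the replicate block, 0 with consecutive blocks or an ordinary linear model, 0 when mutant cocaine replicate 5 was left out and the actin term added together (chosen after seeing the data), and 0 to 4 when arrays were left out. The genotype contrasts and the interaction gave 0 member calls under every alternative run. Of the 4 pairs of genes without Egr3, 4 had an exact p under 0.05, and 3 to 4 with arrays left out. These counts include the pairs with Egr4, a gene that passed the filter through its cocaine arrays alone. Nab2 passed for cocaine averaged over genotypes without the series term (adjusted p = 0.0393) and with array weights (0.0490) in limma. Over all probe sets, the averaged contrast called 28, and 426 in the Arabic-numbered arrays alone, 362 without mutant cocaine replicate 5, 43 without mutant cocaine replicate 1, 103 with array weights, 67 without the series term, 224 with the added pair of changes, 16 with consecutive blocks and 17 with an ordinary linear model. In mutant mice the 6 calls became 0 to 26, and in control mice the 14 became 0 to 42, over the alternatives. The averaged changes of Egr1, Egr2, Egr4, Nab1, Nab2 and Srf kept their sign under all alternatives run. The cause of the lost calls was not tested.

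The arrays do not settle whether the replicate numbers or the consecutive blocks pair the animals. Of 21 pairs with the same replicate number, 6 had residuals correlating above 0.1 (range -0.39 to 0.34), and 4 of 18 arrays correlated best with their own number. Of 21 pairs in the same consecutive block, 8 had residuals correlating above 0.1 over the same range, and 5 of 18 arrays correlated best with their own block. The groups hold 3 saline animals each, probe sets near the floor can give low estimates of change, and Egr3 could not be read.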
